A study of Oryza sativa Japonica Group with 8 samples.

Results

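The stretch described here is the start of the OsNRT2.3 coding sequence that both mRNA isoforms of the gene carry, OsNRT2.3a and OsNRT2.3b. It runs for 177 nt, or 59 codons, from the first base of the ATG. It lies at positions 43 to 219 of the amplified piece of OsNRT2.3a and at 213 to 389 of that of OsNRT2.3b, and the listed base was the same in both at all 177. G and T are listed as exactly 0 in every library, so the members are the 74 A and C positions, out of 485 A and C positions of 3 transcripts in the whole series. All 74 had a value in each of the 4 libraries used. Positions are counted from the A of the ATG, so that C+111 is the C at nucleotide 111 of the coding sequence.

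OsNRT2.3 encodes a high-affinity nitrate transporter of the plasma membrane. Its transcripts are made as a short-leader isoform known for nitrate transport from root to shoot and a long-leader isoform known from the phloem of shoots. Dimethyl sulfate (DMS) enters living cells and methylates A and C on the edge that forms base pairs, when that edge is free. In DMS-MaPseq, a reverse transcriptase that passes the methyl group miscopies the base, so a reacted base is read as a mismatch. In coding sequences, ribosomes move codon by codon and unwind the RNA ahead of them, and structure probing of Arabidopsis mRNAs has shown reactivities that repeat with the codon. The split by codon position and by distance from the ATG asks how far these reactivities follow either.

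The plants were Nipponbare (Nip) rice seedlings, a japonica cultivar, grown for 2 weeks in nutrient solution. Whole seedlings were put for 15 min into buffer with 1% DMS or with an equal volume of water, at 30°C by the sample records and 28°C by the methods. OsNRT2.3a was read in root and OsNRT2.3b in shoot, each with 1 treated and 1 untreated library, so isoform and tissue cannot be told apart. Neither isoform was read in the other tissue, and how many seedlings went into a library is not given in the sources used here. With 1 library per condition there was no replicate error and no test was made. The SDs below are spreads over positions of 1 transcript, which are not replicates. The values are mismatches divided by depth, turned into percentages. The depth itself is unknown, so no interval or detection limit could be given.

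The 4 pieces of sequence on which the results turn are shown first. They are read 5′ to 3′ from the deposited base column, and capitals mark each A or C whose mismatch percentage rose by at least 0.5 percentage points with DMS in OsNRT2.3a. The first piece holds the ATG and had the smallest mean rise of the windows below. The second and the third hold the 2 largest rises (C+111 and C+130), and the last is made up mostly of codons ending in C.
Codons 1 to 10: AtggaggctAagcCggtggCgatggaggtg
Codons 31 to 40: AAggCgACggagttCtggctCttctccttC
Codons 41 to 45: gCgAggccACACAtg
Codons 51 to 59: gCgtggttCtCcttCttCtgCtgCttC
Of the A and C in these pieces, 4 of 10, 8 of 13, 7 of 9 and 8 of 9 are in capitals. The third piece is only part of the window of codons 41 to 50, in which 11 of 18 reached that rise. In codons 11 to 20 and 21 to 30, which are not shown, 6 of 10 and 10 of 14 did. Over all members it was 47 of 74. With the same rule in OsNRT2.3b, a single member of all 74 would be in capitals, C+98 in codon 33.

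Over the 74 members, OsNRT2.3a rose with DMS and OsNRT2.3b did not. The mean mismatch percentage of OsNRT2.3a in root was 0.108% untreated and 1.09% with DMS, a rise of 0.986 percentage points (SD 1.02 over 74 positions). The mean of OsNRT2.3b in shoot was 0.181% untreated and 0.163% with DMS, a change of -0.0186 percentage points (SD 0.162 over 74 positions). DMS was the higher library at 70 of 74 members in OsNRT2.3a and at 35 of 74 in OsNRT2.3b. OsNRT2.3a had the larger change at 68 of these members and OsNRT2.3b at 6. The contrast was not particular to the shared stretch. At the A and C outside the members, the mean change was 1.19 points in OsNRT2.3a (91 positions) and -0.0294 in OsNRT2.3b (106 positions). The control transcript OsNRT1.1B, read in both tissues with 1 pair of libraries each, rose with DMS in shoot and in root. Grouped in steps of 3 nt along its listed piece, its mean rises were 0.784, 0.551 and 0.810 points in shoot. In root they were 0.400, 0.408 and 0.620 points. Why OsNRT2.3b did not rise in shoot while OsNRT1.1B did was not tested.

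The libraries also differed in how their values were spread. In untreated OsNRT2.3a the members ran from 0.00687% (C+87) through a median of 0.0563% to 1.37% (A+148). With DMS they ran from 0.00788% (C+81) through a median of 0.737% to 4.75% (C+130). In OsNRT2.3b the untreated members ran from 0.00351% (C+162) to 1.47% (C+145) with a median of 0.0649%, and the treated ones from 0.00632% (C+138) to 1.47% (C+145) with a median of 0.0601%. The same C therefore held the highest value of OsNRT2.3b with and without DMS, at 1.465% and 1.467%, whereas in OsNRT2.3a it went from 0.0347% to 0.0498%. Across the 74 members, Pearson's r between the untreated and the treated library was 0.262 in OsNRT2.3a and 0.800 in OsNRT2.3b (Spearman's rho 0.340 and 0.758). These correlations are descriptions across positions that share a transcript and an amplification. Between the isoforms, the rise had r = 0.0743 and rho = -0.155.

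**Figure D1:**
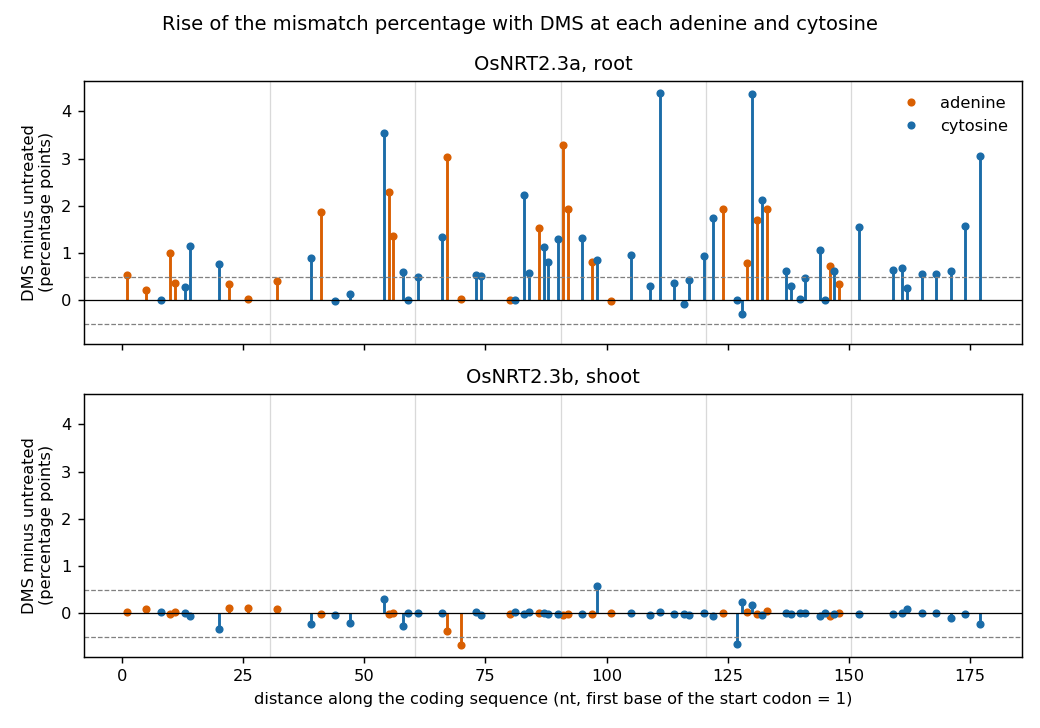
Rise of the mismatch percentage (DMS minus untreated, percentage points) at each of the 74 A and C positions against distance from the first base of the ATG, for OsNRT2.3a in root (top) and OsNRT2.3b in shoot (bottom). Dashed lines mark 0.5 points in either direction and grey lines the borders of the windows of 10 codons. OsNRT2.3a reaches 4.39 points and OsNRT2.3b at most 0.578.

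In OsNRT2.3a, 47 of the 74 members (63.5%) gained 0.5 percentage points or more, against 67.3% of all 165 A and C positions of its amplified piece. In OsNRT2.3b, 1 member did, against 2.78% of its 180 positions. A fall of that size was seen at 0 members of OsNRT2.3a (0% of the 165) and at 2 of OsNRT2.3b (2.78% of the 180). At the limit, C+74 of OsNRT2.3a was just inside with 0.517 points and C+61 just outside with 0.487, whereas OsNRT2.3b had no member between 0.297 and 0.578. With a limit of 0.25 points the members above it were 59 in OsNRT2.3a (78.8% of all its positions passed) and 3 in OsNRT2.3b (5.0%). With a limit of 1 point they were 26 (46.1% of all positions passed) and 0 (0.556% of all positions). As a ratio, 59 members of OsNRT2.3a reached 2 times the untreated value (79.7%, against 81.2% of all its positions). In OsNRT2.3b 7 members did (9.46%, against 9.44% of all its positions). The members' shares in OsNRT2.3a thus lay within 4 percentage points of those of the whole piece, except at the limit of 1 point, where 35.1% of the members passed.

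**Figure D2:**
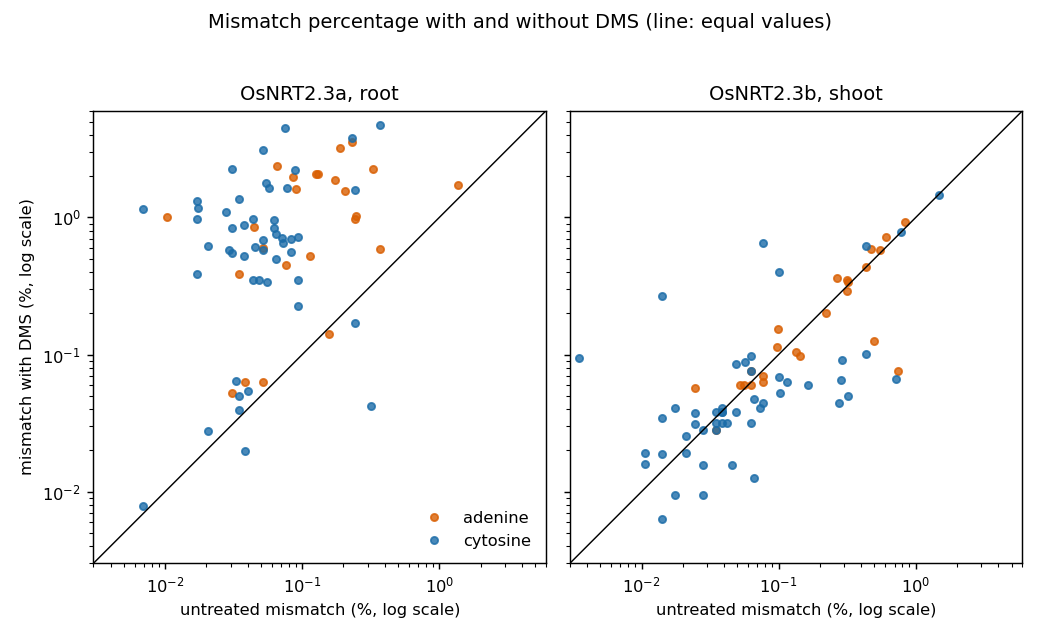
Mismatch percentage with DMS against the untreated mismatch percentage of the same position (both axes logarithmic, in percent), 74 positions for each isoform. The line marks equal values. Most points of OsNRT2.3a lie above it, with 15 under 2 times the untreated value, whereas those of OsNRT2.3b lie on both sides of it, 35 of 74 above and 7 at 2 times or more.

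The 3 codon positions differed first in what could be measured. Among the 59 codons, the first position held 11 A and 9 C, the second 12 A and 17 C, and the third 1 A and 24 C. The third position was G or C in 96.6% of codons, against 52.5% at the first and 45.8% at the second. A comparison of the third position with the others is therefore almost a comparison of C with a mixture of A and C.

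In OsNRT2.3a, the second codon position had the smallest mean rise. The first position went from 0.159% to 1.31%, a rise of 1.15 percentage points (SD 1.25 over 20 positions). The second went from 0.104% to 0.842%, a rise of 0.738 (SD 0.743 over 29). The third went from 0.0736% to 1.22%, a rise of 1.14 (SD 1.07 over 25). The range of 0.412 points between these means was smaller than the SD over positions within each of them. The 0.5-point limit was reached by 12 of 20, 16 of 29 and 19 of 25 members.

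The order of the first position and the third turned with the base. Among A, the rise was 1.42 points at the first position (11 sites) and 0.846 at the second (12 sites), and the single A at the third, A+129, rose by 0.786. Among C, it was 0.824 at the first position (9 sites), 0.662 at the second (17 sites) and 1.16 at the third (24 sites). By means, the second position was below the first for both bases. By median rises this held for A, with 1.00 points at the first and 0.572 at the second. It did not hold for C, with 0.487 and 0.618. The 9 C at the first position include C+130, which rose by 4.38 points. The mean at the first position also rested on few sites, since the median rise there was 0.572 points, below the 0.618 of the second and the 0.786 of the third.

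In OsNRT2.3b, no codon position rose by more than 0.0144 points on average. The first position went from 0.353% to 0.274%, a change of -0.0795 percentage points (SD 0.230). The second went from 0.169% to 0.183%, a change of 0.0144 (SD 0.144), and the third from 0.0584% to 0.0504%, a change of -0.00801 (SD 0.0954). The fall at the first position rested mainly on A+70 and C+127, without which it was -0.0154. The untreated library itself fell from the first through the second to the third position. The untreated OsNRT2.3a means had the same order, with 0.159%, 0.104% and 0.0736%. That first-position mean of OsNRT2.3a holds A+148 at 1.37%, its highest untreated value. Among C of untreated OsNRT2.3a the means were close, at 0.0764%, 0.0750% and 0.0665%. Among A they were 0.226% and 0.144%, with 0.245% at the single A of the third position. OsNRT2.3a minus OsNRT2.3b was 1.23 points at the first position, 0.724 at the second and 1.15 at the third, with OsNRT2.3a ahead at 20 of 20, 24 of 29 and 24 of 25 members.

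**Figure D3:**
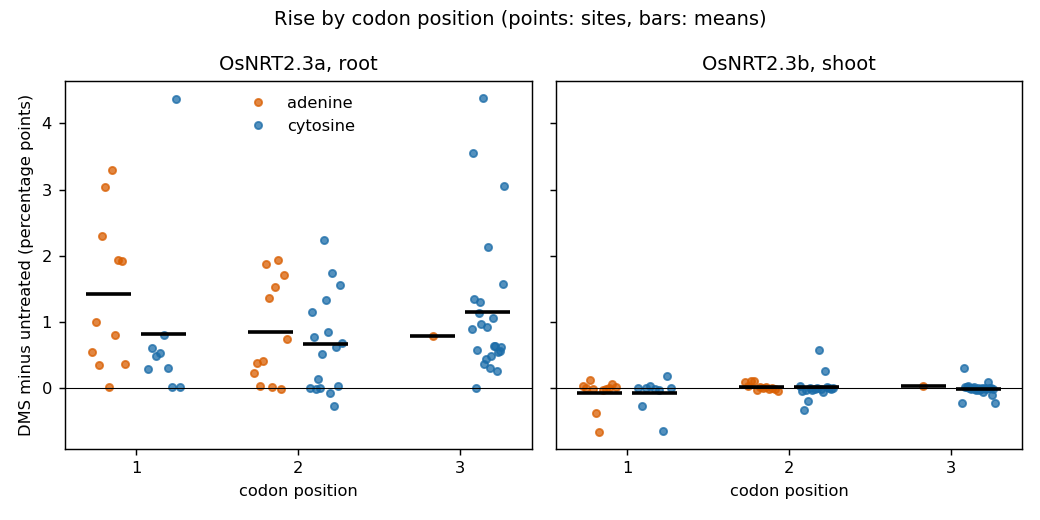
Rise with DMS (percentage points) by codon position for OsNRT2.3a in root (left) and OsNRT2.3b in shoot (right). Points are single sites, A and C drawn apart, and bars are the means. In OsNRT2.3a the second position has the lowest mean of C (0.662 points), and its A (0.846) lie below those of the first position (1.42).

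The same frame was followed into the next codons of OsNRT2.3a, from codon 60 to codon 116, which are read in that library pair only. There the rise was 1.33 points at the first position (25 sites), 1.16 at the second (29 sites) and 1.09 at the third (29 sites, all C), so the second position was not the lowest. Among C alone these downstream means were 1.15, 1.13 and 1.09, a range of 0.0651 points against 0.495 among C of the shared start. A register of 3 nt counted along OsNRT1.1B from its first listed base, with no frame assigned, gave ranges of 0.220 points in root and 0.259 in shoot over A and C together, and 1.59 and 0.809 among C. In the leader of OsNRT2.3b, which is not part of this coding sequence, the register counted back from the ATG gave a range of 0.124 points, against 0.0939 in its shared coding start. Differences between registers were therefore also found where no frame was assigned, below 0.412 points over A and C together and above 0.495 among C in OsNRT1.1B. The third register of OsNRT1.1B had the highest mean of C, at 1.94 points in root and 1.33 in shoot. These means rest on few C, since 29 of the 39 sites in that register are A.

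Members of OsNRT2.3a that stayed under 2 times their untreated value numbered 15. The share that reached 2 times was 79.7% of the members and 81.2% of all 165 A and C positions, so the members were near the whole piece. By codon position they were 4 of 20 at the first, 10 of 29 at the second and 1 of 25 at the third, the last being C+81. Among them were A+26, which went from 0.0380% to 0.0634%, A+80, from 0.0516% to 0.0631%, and C+59, from 0.0207% to 0.0277%. C+81 (0.00688% to 0.00788%) lies 2 nt before C+83, which went from 0.0309% to 2.26%.

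By distance from the ATG, the first 10 codons of OsNRT2.3a had the smallest mean rise. Over their 10 members it was 0.473 percentage points (0.0750% to 0.548%), and no member there rose by more than 1.15. In codons 11 to 20 it was 1.11 points over 10 members, in codons 21 to 30 0.967 over 14, in codons 31 to 40 1.19 over 13, in codons 41 to 50 1.03 over 18, and in codons 51 to 59 1.06 over 9. By means the first window was lowest for each base, with 0.420 points at A against 1.15 to 1.51 in the next 4 windows, and 0.552 at C against 0.861 to 1.06 in the other 5. By median rises it was not the lowest for C, with 0.528 points against 0.367 in codons 11 to 20. The 8 listed A and C of OsNRT2.3a just before the ATG had 1.24 points, above the first 10 codons. Past the first window there was no steady trend, and over all 74 members rho between the rise and the distance was 0.123 (r = 0.112). Of the 10 members in the first window, 6 lie in the part of the coding sequence that the small RNA sNRT2.3-1 matches, with a rise of 0.404 points. The part that the small RNA sNRT2.3-2 matches holds 9 members, with a rise of 1.21 points, against 0.986 over all 74. Matching here means the same sequence as the small RNA and not its complement. Whether the small RNAs have a part in these rises was not tested. The last window minus the first was 0.584 points as a difference of mean rises and 0.270 as a difference of median rises.

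In OsNRT2.3b it was the background, and not the rise, that varied along the coding sequence. The untreated mean was 0.401% in codons 1 to 10, 0.245% in codons 11 to 20, 0.125% in codons 21 to 30, 0.0619% in codons 31 to 40, 0.209% in codons 41 to 50 and 0.0721% in codons 51 to 59. With DMS the means were 0.405%, 0.211%, 0.0550%, 0.0981%, 0.193% and 0.0408%. The changes lay between -0.0698 points in codons 21 to 30 and 0.0362 in codons 31 to 40, the latter resting on C+98. Between the untreated value and the distance, rho was -0.403 (OsNRT2.3b) and 0.163 (OsNRT2.3a). In the first 10 codons, untreated OsNRT2.3b at 0.401% was above untreated OsNRT2.3a at 0.0750%, so over these bases the untreated libraries differed by more than in any later window.

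**Figure D4:**
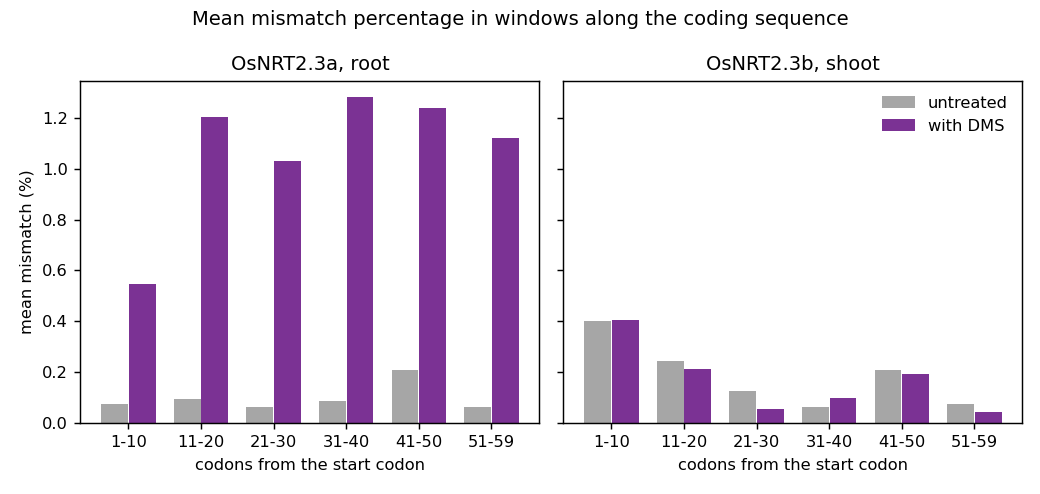
Mean mismatch percentage of the A and C positions in windows counted from the start codon, untreated (grey) and with DMS (purple), for OsNRT2.3a in root (left) and OsNRT2.3b in shoot (right), with 10, 10, 14, 13, 18 and 9 positions in the windows. The treated mean of OsNRT2.3a is 0.548% in codons 1 to 10 and between 1.03% and 1.28% in the others, whereas both libraries of OsNRT2.3b are highest in codons 1 to 10.

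Among single sites, the A of the ATG went from 0.0519% to 0.596% in OsNRT2.3a, a rise of 0.544 points. In OsNRT2.3b it went from 0.313% to 0.347%, a change of 0.0339 points. The stretch holds 4 more in-frame ATG codons for methionine, and their A behaved unequally in OsNRT2.3a. A+22 rose by 0.354 points (0.0345% to 0.388%), A+70 by 0.0213 (0.0310% to 0.0523%), A+133 by 1.93 (0.330% to 2.26%) and A+148 by 0.357 (1.37% to 1.72%). In OsNRT2.3b the same A changed by 0.122 (A+22), -0.665 (A+70), 0.0567 (A+133) and 0.0127 points (A+148). The initiating A was thus neither the highest nor the lowest of the 5 in OsNRT2.3a.

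The largest rises of OsNRT2.3a were at C+111, C+130 and C+54. C+111, the third base of codon 37 (CTC, leucine), went from 0.0754% to 4.46%, and in OsNRT2.3b from 0.0175% to 0.0410%. C+130, the first base of codon 44 (CAC, histidine), went from 0.369% to 4.75%, and in OsNRT2.3b from 0.434% to 0.616%. C+54, the third base of codon 18 (GGC, glycine), went from 0.231% to 3.78%, and in OsNRT2.3b from 0.101% to 0.399%. All of these were also higher with DMS in OsNRT2.3b, by 0.0235, 0.181 and 0.297 points, as were 35 of all 74 members. The next largest rises of OsNRT2.3a were at A+91 (3.30 points), C+177 (3.06) and A+67 (3.04). These sites were lower with DMS in OsNRT2.3b, by -0.0290, -0.233 and -0.374 points. The largest differences between the isoforms were at C+111 (4.37 points), C+130 (4.20) and A+67 (3.42), the first base of codon 23 (AGG, arginine). A+67 went from 0.189% to 3.23% in OsNRT2.3a and from 0.499% to 0.126% in OsNRT2.3b.

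In OsNRT2.3a, 4 members were lower with DMS than without. C+128, the second base of the proline codon 43 (CCA), fell from 0.320% to 0.0423%, C+116 from 0.242% to 0.169%, and C+44 from 0.0379% to 0.0198%. C+128 stood 2 nt before C+130, one of the largest rises. In OsNRT2.3b, A+70 fell from 0.741% to 0.0754%, C+127 from 0.715% to 0.0663% and A+67 from 0.499% to 0.126%. The largest rises of OsNRT2.3b were at C+98 (0.0770% to 0.655%), C+54 and C+128 (0.0140% to 0.265%). C+98, the second base of the threonine codon 33 (ACG), was the only member that rose by at least 0.5 points in both isoforms, with 0.849 in OsNRT2.3a (0.0377% to 0.887%) and 0.578 in OsNRT2.3b. The 6 members where the change was the higher one in OsNRT2.3b were C+8, A+26, C+81, A+101, C+116 and C+128. OsNRT2.3a minus OsNRT2.3b was -0.529 points at C+128 and lay between -0.0866 (A+26) and -0.0196 (C+81) at the others. Of the 6, 5 were second bases of their codons, as were 29 of all 74 members.

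By whole codons, 52 of the 59 held at least 1 A or C and 19 held at least 2, and all 19 had a mean rise above 0 in OsNRT2.3a. The largest were 2.74 points in codon 44 (CAC, histidine), 2.62 in codon 31 (AAG, lysine) and 2.35 in codon 37 (CTC, leucine). The smallest were 0.00625 in codon 27 (GAC, aspartate), 0.174 in codon 43 (CCA, proline) and 0.179 in codon 39 (TCC, serine). Codons 43 and 44 are neighbours, so the highest and nearly the lowest codon means stood side by side. In OsNRT2.3b these 6 codons had mean changes of 0.0471, -0.0239, -0.00312, 0.00874, -0.122 and -0.0210 points.

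One recurring codon was compared across its places in the stretch. TTC, a codon for phenylalanine, occurs 9 times, and its C is always the third base. The sites are shown with the codon before and the codon after, where the stretch holds it, and capitals mark the measured C.
Codon 22: cggttCagg
Codon 35: gagttCtgg
Codon 38: ctcttCtcc
Codon 40: tccttCgcg
Codon 48: tccttCcac
Codon 53: tggttCtcc
Codon 55: tccttCttc
Codon 56: ttcttCtgc
Codon 59: tgcttC
In OsNRT2.3a the C rose by 1.35 points in codon 22, by 0.962 in codon 35, by 0.370 in codon 38 and by 0.930 in codon 40. It rose by 1.06 points in codon 48, by 0.633 in codon 53, by 0.548 in codon 55, by 0.567 in codon 56 and by 3.06 in codon 59. The same base in the same codon thus ranged from 0.370 to 3.06 points, with a mean of 1.05 (SD 0.811 over 9 sites). All 24 C at the third position, which include these 9, had a mean of 1.16. In OsNRT2.3b these 9 sites changed by -0.233 to 0.0132 points, with a mean of -0.0319. The lowest of these was C+177 of codon 59, which is the last listed base of OsNRT2.3b. It went from 0.277% to 0.0444% there and from 0.0521% to 3.11% in OsNRT2.3a.

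The C at the third position were also split by whether any nucleotide there would encode the same amino acid. In OsNRT2.3a, the 9 at such sites had a mean rise of 1.35 points (SD 1.53) and a median of 0.574, and the other 15 had a mean of 1.04 (SD 0.764) and a median of 0.930, so mean and median gave opposite orders. By the base that follows, C before A rose by 1.63 points (8 sites), before G by 0.932 (15), before T by 0.767 (16) and before C by 0.647 (11). A before A rose by 2.20 points (3 sites), before G by 1.12 (10), before C by 0.928 (6) and before T by 0.641 (5). The largest mean was before A for both bases, with SDs of 1.64 and 1.15 points. All 5 of the A before T are those of the ATG codons above. In OsNRT2.3b the means by following base lay between -0.0880 and 0.0873 points.

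Pairing predicted from sequence alone with ViennaRNA at 28°C, over the listed piece of each isoform, was similar on average for both. The mean unpaired probability over the 74 members was 0.391 in OsNRT2.3a and 0.397 in OsNRT2.3b, with r = 0.848 between them. Near the ATG single sites differed, as A+22 had 0.999 (OsNRT2.3a) and 0.0728 (OsNRT2.3b). C+39 had 0.0119 and 0.962. In OsNRT2.3a it was 0.458 at the first codon position, 0.307 at the second and 0.437 at the third, so the second position was lowest there as it was in the measured rise. The 16 members with a probability above 0.9 had a mean rise of 1.80 points and the 29 below 0.1 had 0.675. Of the 15 members under 2 times their untreated value, 9 were predicted below 0.1 and 1 above 0.9. Between the probability and the rise, rho was 0.409 (OsNRT2.3a) and -0.0157 (OsNRT2.3b). In OsNRT2.3b the 17 members above 0.9 had a mean change of -0.0247 points and the 30 below 0.1 had -0.0281. By window, the first 10 codons of OsNRT2.3a had 0.441, above the 0.391 of all members, although their rise was the smallest. The prediction knows no ribosomes, proteins or bases outside the piece, and its part in these values was not tested.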

How the data were processed

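Per the labels and methods, the authors used Trimmomatic for trimming, with 2 nt taken off the 5′ end and a minimum length of 200 bp, and TopHat for alignment to a japonica reference. Reads aligning to several places, and mismatches within 3 nt of an indel, were left out. Tool versions and the build are not given in the sources used here. The deposited values are mismatches over sequencing depth per position, as a fraction, and were multiplied to percent. Depth is not listed, so sites of unequal precision had equal weight, and PCR copies cannot be told from molecules.

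The 4 OsNRT2.3 libraries were joined by distance from the ATG. Rise is DMS minus untreated, averaged over sites without weights. Named sites were the A of the ATG, the 3 largest rises, falls and isoform differences, the sites that rose more in OsNRT2.3b, and the 3 highest and 3 lowest codons with at least 2 members. The other ATG codons, the TTC codons, C+83, A+91, C+145, the sites at the ends of each library's range and the examples among the 15 weak sites were picked after their values were seen. Members and lists were chosen with earlier results of these data known. Alternatives were medians, filters on sites, single or equally weighted bases, no subtraction, wider windows and other limits. Code was tested on simulated data. Software was ViennaRNA 2.7.2, Biopython 1.88, pandas 2.3.3, numpy 2.4.6, scipy 1.17.1 and matplotlib 3.10.9 under Python 3.11.15.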

Additional observations from a re-analysis of the deposited data

Results flagged for a closer look

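The mean changes of the isoforms had opposite signs, from 1 pair of libraries each, but those of OsNRT2.3b were small. Over all 74 members, OsNRT2.3a minus OsNRT2.3b was 1.00 percentage points, from 0.986 and -0.0186. In OsNRT2.3b, 35 of 74 members were higher with DMS. No opposite movement is shown by this, since 1 library per condition gives no error for so small a change. The OsNRT2.3b value is also smaller than the 0.0729 points between the untreated means of both isoforms, though that gap is not an error of the change. The signs also differed at the first codon position, where the difference was 1.23 points, and at the third, where it was 1.15. The OsNRT2.3b values there were -0.0795, or -0.0154 without A+70 and C+127, and -0.00801. In codons 11 to 20 (1.14 points), 21 to 30 (1.04), 41 to 50 (1.05) and 51 to 59 (1.09), the OsNRT2.3b changes lay between -0.0698 and -0.0161. None of these differences was tested, and tissue and isoform cannot be told apart.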

How the results depend on the processing

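No paired analysis was possible because no condition was read in more than 1 library. A mean is taken as unmoved within 0.0729 points, the difference between the untreated means of both isoforms over the members, and a count within 1.5 times. These limits are conventions and measure no error. Depth and the number of molecules are unknown and limit every value. Leaving out the largest rise, or the 2 largest falls, was added after the data were seen. For the changes that follow, the cause was not tested.

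Of 13 alternatives, no subtraction gives the treated percentage itself, which cannot fall below 0. In the others the change stayed above 0 in OsNRT2.3a and below 0 in OsNRT2.3b, where it lay between -0.0357 and -0.000835. From treated minus untreated medians, OsNRT2.3a had 0.681 points and OsNRT2.3a minus OsNRT2.3b 0.685. As median rises these were 0.632 and 0.633, without the 5% highest members 0.819 and 0.842, at A only 1.11 and 1.13, and without the first 10 codons 1.07 and 1.09. With no subtraction OsNRT2.3a had 1.09 and OsNRT2.3b 0.163.

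The range over codon positions in OsNRT2.3a was 0.275 from treated minus untreated medians, 0.214 as median rises (the first position then lowest), 0.158 without the 5% highest members, 0.519 without members above 1% untreated, 0.632 at A only (the third lowest, from 1 site), 0.495 at C only and 0.579 without the sRNA stretches. The second position was lowest in all other alternatives. In OsNRT2.3b it was 0.230 from treated minus untreated medians, 0.00249 as median rises and 0.223 with no subtraction.

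The last window minus the first in OsNRT2.3a was 0.189 from treated minus untreated medians, 0.270 as median rises, 0.504 at C only, 0.481 without the sRNA stretches and 0.249 with windows of 20 codons. In OsNRT2.3b it was -0.365 with no subtraction and 0.0540 at C only. The last window holds no A, so A only and equal weights gave no value. At a limit of 1 point, 26 members of OsNRT2.3a were raised and 0 of OsNRT2.3b. The latter had 3 at 0.25 points and 7 at 2 times the untreated value.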
